A study of Homo sapiens with 8 samples.

Results

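The genes described here encode chaperones, their cofactors and the transport machinery of the endoplasmic reticulum (ER), with the cytosolic and mitochondrial relatives that share their names. They were taken by symbol, as every listed gene whose symbol starts with SEC and a digit, DNAJ, HSP, PDIA, EDEM, DERL, TMED, KDELR, SSR or SRP and a digit, COP followed by A, B, G, E or Z, CALR or CANX. This gave 47 of the 2998 genes listed in any of 3 deposited tables. The tables come from RNA sequencing of MDA-MB-231 cells, an established human triple-negative breast cancer line, in 4 groups of 2 samples, which were untreated cells and cells given brazilin, methylated brazilin or acetylated brazilin. Brazilin is the phenolic compound behind the red dye of brazilwood. The original compound and each derivative were used at 20 µM for 48 h, added when cells were seeded and renewed each day. The labels call the untreated group control cells with no treatment, and whether solvent was added to it is not stated in those labels.

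Each table sets 1 compound against untreated cells and gives, per gene, the authors' mean level in untreated and in treated cells, their log2 fold change and the q-value. Levels are in FPKM, sequenced fragments scaled to transcript length and to the size of the library. The tables hold only genes the authors called, with q-values under 0.05 and absolute log2 fold changes of at least 0.5, so an absent gene has no value here and nothing can be said of it. They give no values per sample, so the spread between replicates cannot be seen and the depth is unknown. The labels do not say whether the 2 samples of a group were separate cultures, so the q-values may measure technical spread alone. Every value of a gene in what follows, as FPKM, log2 fold change or q-value, was taken from the authors' deposited table of that compound. Intervals are 95% intervals whose standard error was derived from the q-value, and they are too wide rather than too narrow if the deposited test was a Wald test without shrinkage. In bulk RNA, a lower level in every cell and fewer expressing cells cannot be told apart. Of 8 markers of mesenchymal-like breast lines 4 were listed with brazilin (FN1 lower, CAV1, CD44 and SNAI2 higher). None of 8 epithelial and hormone receptor markers was listed, so their levels were not checked. Of markers of other cell types, 1 of 5 for leukocytes (CD68, 50.8 to 81.6 FPKM), 1 of 3 for endothelium (PECAM1, 1.35 to 0.905 FPKM) and 0 of 3 for fibroblasts were listed, and their part in the results was not tested.

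Proteins bound for secretion enter the ER through the SEC61 channel, fold there with the help of the HSP70-type chaperone BiP, the HSP90-type chaperone GRP94, the lectins calnexin and calreticulin and the disulfide isomerases, and leave in COPII vesicles. COPI vesicles and the KDEL receptors bring escaped chaperones back, and proteins that fail to fold are sent to the proteasome by ER-associated degradation. When unfolded proteins accumulate, the sensors IRE1, PERK and ATF6 start the unfolded protein response, which raises transcription of many of these genes through XBP1 and ATF6. A separate heat shock response, through HSF1, serves the cytosolic chaperones.

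Promoter sequences are shown for genes that were lower with brazilin and hold an element of the unfolded protein response. The choice by symbol did not read promoters, but it picked by name genes that this response is known to raise. An element in them is thus no independent finding. RefSeq promoters of build GRCh38.p14, from 250 bases before to 50 bases after each annotated start, were found for 41 of the 47 genes. The ER stress response element (ERSE), the site of NF-Y with ATF6 or XBP1, was searched as CCAAT, 9 bases of any kind and CCACG on both strands. The capitals mark the element, and where it is read from the opposite strand it appears as its reverse complement. HSP90B1 holds the element at 2 places and the other 4 genes at 1 in the window shown.
HSPA5, chr9:125241294-125241593, minus strand: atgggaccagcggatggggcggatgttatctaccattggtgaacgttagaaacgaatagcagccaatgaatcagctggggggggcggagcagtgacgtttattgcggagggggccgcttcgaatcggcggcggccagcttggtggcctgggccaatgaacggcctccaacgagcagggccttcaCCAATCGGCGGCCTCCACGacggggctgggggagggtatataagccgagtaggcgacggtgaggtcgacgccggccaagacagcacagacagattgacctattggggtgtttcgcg
HSP90B1, chr12:103930160-103930459, plus strand: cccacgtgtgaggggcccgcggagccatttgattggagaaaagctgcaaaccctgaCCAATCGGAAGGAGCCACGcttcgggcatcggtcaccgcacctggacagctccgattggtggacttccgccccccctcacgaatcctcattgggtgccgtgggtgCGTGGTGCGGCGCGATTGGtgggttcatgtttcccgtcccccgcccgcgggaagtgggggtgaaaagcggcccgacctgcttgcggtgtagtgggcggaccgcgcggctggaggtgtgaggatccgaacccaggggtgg
CALR, chr19:12938359-12938658, plus strand: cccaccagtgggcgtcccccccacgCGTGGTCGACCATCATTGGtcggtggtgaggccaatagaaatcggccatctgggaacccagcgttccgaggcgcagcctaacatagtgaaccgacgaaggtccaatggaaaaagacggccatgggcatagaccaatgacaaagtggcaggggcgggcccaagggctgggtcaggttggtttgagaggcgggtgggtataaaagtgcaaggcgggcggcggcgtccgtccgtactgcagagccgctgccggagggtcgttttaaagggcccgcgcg
CANX, chr5:179698537-179698836, plus strand: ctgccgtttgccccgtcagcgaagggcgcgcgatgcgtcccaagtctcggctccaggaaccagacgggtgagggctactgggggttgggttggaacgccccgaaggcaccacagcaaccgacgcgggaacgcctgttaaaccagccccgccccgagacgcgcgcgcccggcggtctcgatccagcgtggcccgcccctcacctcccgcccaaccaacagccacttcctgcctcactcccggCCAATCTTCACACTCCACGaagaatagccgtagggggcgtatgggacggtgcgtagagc
PDIA6, chr2:10812736-10813035, minus strand: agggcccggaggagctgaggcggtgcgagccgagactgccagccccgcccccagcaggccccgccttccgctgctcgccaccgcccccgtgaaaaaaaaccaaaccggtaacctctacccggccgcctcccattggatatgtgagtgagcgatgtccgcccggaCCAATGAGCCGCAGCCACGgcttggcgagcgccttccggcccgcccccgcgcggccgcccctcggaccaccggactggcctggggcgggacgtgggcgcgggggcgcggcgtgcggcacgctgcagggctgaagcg

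The shorter unfolded protein response element (UPRE), searched as TGACGTGG on both strands, was in the promoters of DNAJC10, KDELR3, SEC62 and SSR3, each time as the reverse complement CCACGTCA. In KDELR3 and DNAJC10, shown here, it is in capitals.
KDELR3, chr22:38467846-38468145, plus strand: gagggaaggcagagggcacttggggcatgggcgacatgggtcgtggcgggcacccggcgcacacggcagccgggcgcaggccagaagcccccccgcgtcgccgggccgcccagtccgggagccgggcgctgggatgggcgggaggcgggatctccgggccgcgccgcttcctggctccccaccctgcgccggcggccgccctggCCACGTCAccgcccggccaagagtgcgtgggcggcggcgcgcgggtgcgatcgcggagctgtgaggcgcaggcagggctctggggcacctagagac
DNAJC10, chr2:182716007-182716306, plus strand: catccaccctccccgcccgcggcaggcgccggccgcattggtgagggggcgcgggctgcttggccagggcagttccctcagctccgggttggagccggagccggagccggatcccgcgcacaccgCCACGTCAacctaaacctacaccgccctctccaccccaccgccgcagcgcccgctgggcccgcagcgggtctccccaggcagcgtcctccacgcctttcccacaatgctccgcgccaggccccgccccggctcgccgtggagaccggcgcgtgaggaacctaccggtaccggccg

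Of the 36 lower genes with a promoter, 5 held an ERSE (13.9%) and 4 a UPRE (11.1%). Among all 27305 genes with a promoter entry the shares were 0.0916% and 0.927%, and among the 15843 protein-coding ones 0.133% and 1.05%. Among the other listed genes that were lower with brazilin they were 0.344% and 1.98% of 1163 genes, and among the other listed genes that were higher 0.370% and 0.370% of 1080 genes. The related ERSE-II, searched as ATTGG, 1 base of any kind and CCACG, was in none of the 41 promoters. The heat shock element was searched as GAA, TTC and GAA, or TTC, GAA and TTC, each with 2 free bases between them. It was also in none of the 41. Of all genes with an entry 0.0696% held an ERSE-II and 0.608% a heat shock element. Both are so rare that their absence from 41 promoters shows no depletion. All searches covered both strands and counted a gene once over its annotated starts, and none of the elements overlapped another in the windows shown. The 5 genes with an ERSE are the main luminal or lectin chaperones and 1 disulfide isomerase, and their log2 fold changes ran from -1.24 to -0.70. These matches describe letters in a window and are not evidence of binding. Genes of the same symbols that were not listed were not counted, so the shares do not show that an element goes with a fall.

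**Figure D1:**
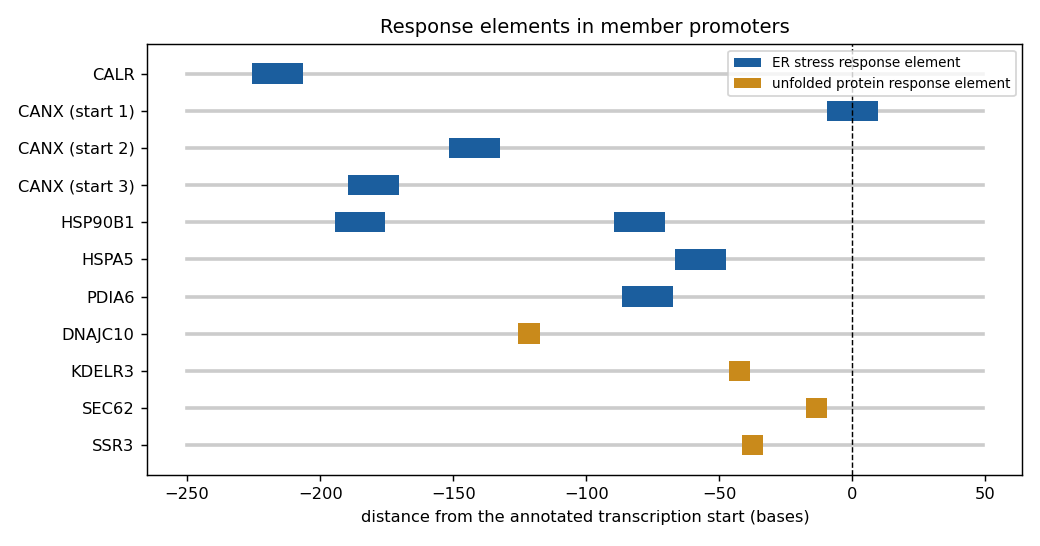
Position of response elements in the promoters of the 9 genes that hold one, as the distance in bases from the annotated transcription start. Grey lines span each window, blue blocks are ERSE and orange blocks UPRE. In CANX the windows of 3 annotated starts hold the same element, which begins at -9 from the start used for the sequence shown, and the HSPA5 element begins at -66.

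With brazilin 46 of the genes were listed, 42 lower and 4 higher than in untreated cells. Of all 2885 genes in the brazilin table, 52.4% were lower and 47.6% higher, and the members' share of lower genes was 91.3%. The median log2 fold change of the 46 members was -0.69, against -0.51 over all listed genes, and that of the lower members alone was -0.74, against -0.68 over all lower genes. The lower members were thus close in size of change to other lower genes. The genes were also grouped by hand by the known place of their proteins. All 39 listed genes of the ER and early secretory pathway were lower, whereas of the 7 listed genes whose products work in the cytosol, nucleus, mitochondria or endosomes, or have no settled place, 4 were higher and 3 lower. The 4 higher genes were HSPB8, HSPA2, DNAJC2 and HSPE1. Summed over the 39 genes the mean FPKM went from 10422 to 6094, or 58.5% of the untreated sum.

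**Figure D2:**
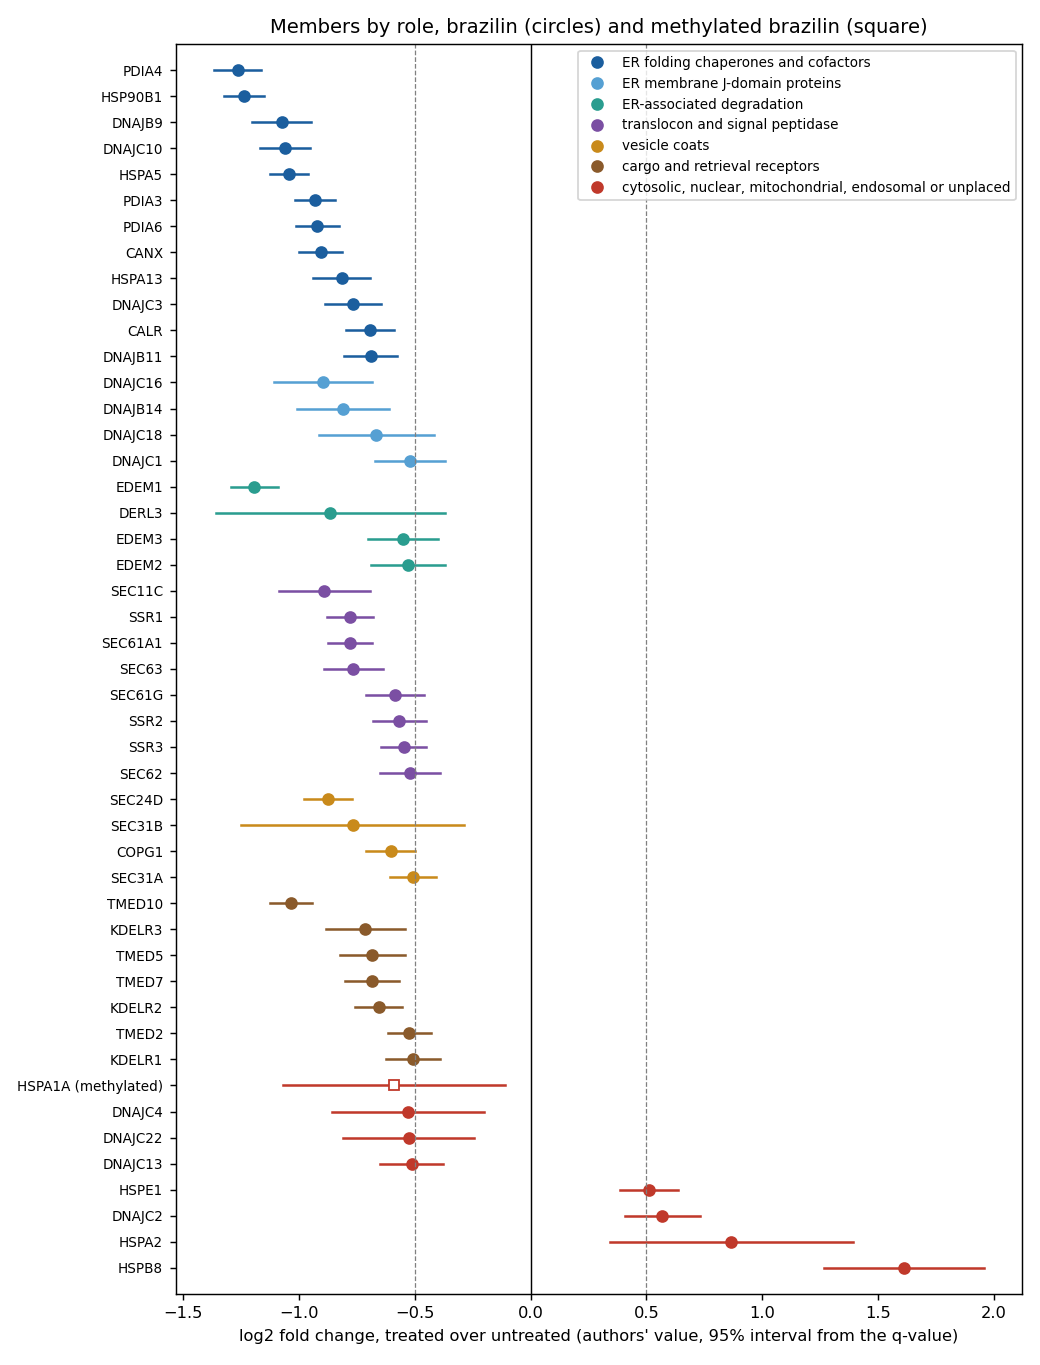
Log2 fold change of each of the 47 genes (treated over untreated), by role, with 95% intervals derived from the q-values. Circles are brazilin, the open square is methylated brazilin, and dashed lines mark 0.5 either way. Every ER and secretory gene lies left of 0, from -1.27 for PDIA4 to -0.51 for SEC31A, and the 4 points right of 0 are HSPE1, DNAJC2, HSPA2 and HSPB8.

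The split depends in part on scale. The authors' log2 fold changes lie a median of 0.09 below the log2 ratio of their own FPKM means. Counted by that ratio, with at least 0.5 either way, 29 members were lower and 4 higher, and of all listed genes past that limit 41.6% were lower and 58.4% higher. No member changed direction. The 29 were all ER and secretory genes. In 13 of the 42 lower members the FPKM ratio was smaller than 0.5, which, apart from DNAJB14, had deposited values near that limit already.

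Direction in this table also moved with transcript length and level, and those values stand beside the count. Among the other listed genes 30.3% were lower in the shortest of 5 length classes and 78.0% in the longest, while of the members 8 of 9 were lower in the shortest class and 9 of 9 in the longest. The members' median transcript length was 2991 bases, against 3222 for the other listed genes. At 100 FPKM or more in untreated cells 64.3% of 126 other listed genes were lower, and 17 of 18 members. The members' share was above that of the other genes in every length class and in every level class that held members.

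**Figure D3:**
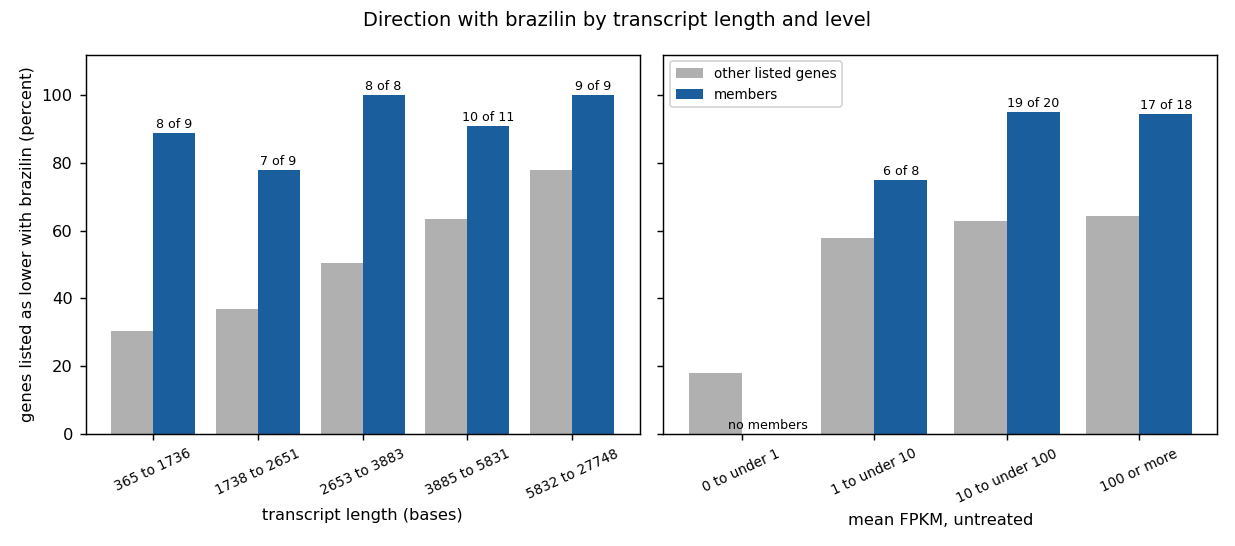
Percent of listed genes that were lower with brazilin, by transcript length in bases (left) and mean FPKM in untreated cells (right), for the members (blue, with counts) and the other listed genes (grey). The grey bars climb with length from 30.3% to 78.0%, and no member lay under 1 FPKM.

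Measured against the genome, 46 of the 151 protein-coding RefSeq genes that match the symbol pattern were in the brazilin table (30.5%), as were 14.3% of all 20056 protein-coding genes, a denominator that includes genes these cells do not express. The families differed widely. All 3 KDEL receptors and all 3 EDEM genes were listed, 3 of 4 SSR genes and 3 of 5 PDIA genes. By contrast 12 of 45 DNAJ genes, 8 of 29 SEC genes and 6 of 31 HSP genes were listed. Of the 8 COP genes, the subunits of the COPI coat, 1 was listed, and of the 6 SRP genes, the signal recognition particle proteins, none.

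**Figure D4:**
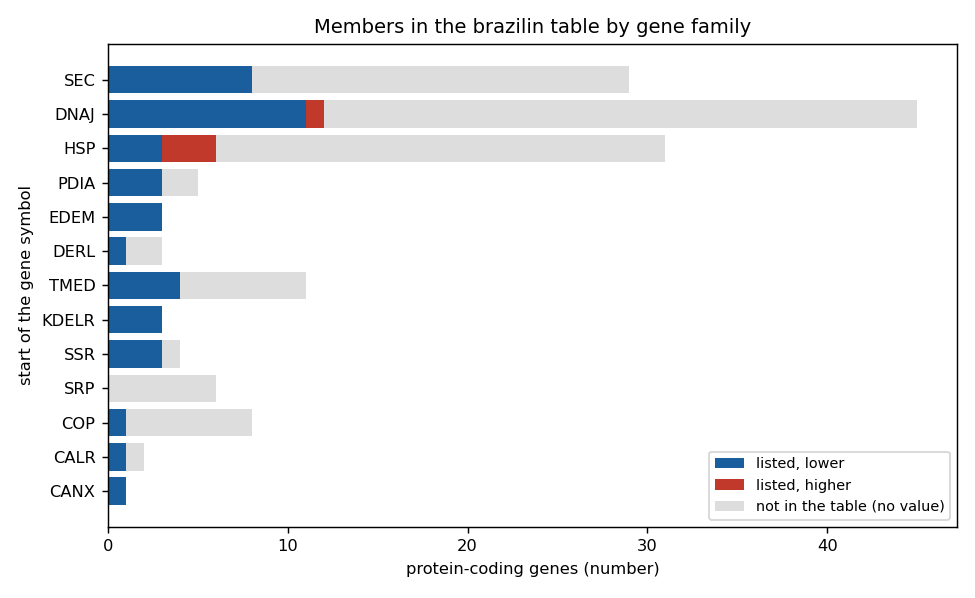
Number of protein-coding RefSeq genes by the start of the symbol, divided into those listed as lower with brazilin (blue), listed as higher (red) and not in the table (grey, without a value). The EDEM, KDELR and CANX bars are blue over their whole length, and red appears in the DNAJ and HSP bars alone.

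The ER folding chaperones and their cofactors had the lowest median of the classes. All 12 listed were lower, where 52.4% of all listed genes were lower. Their median log2 fold change was -0.93, against -0.68 over all lower genes. Of the 12, 5 were at least 2-fold lower, as were 277 of the 1511 listed lower genes. Those 277 were 9.6% of all listed genes, a total that includes the higher ones. By the ratio of FPKM means 2 of the 12 were at least 2-fold lower, PDIA4 and HSP90B1. The same 2 remained after the fold changes were centred on the median offset of -0.09 from that ratio. The other 3 of the 5 lay at 50.5% to 51.7% of the untreated mean FPKM. By that ratio 201 listed genes were at least 2-fold lower, 6.97% of all listed genes. They were among 977 listed genes whose log2 ratio was lower past 0.5, as that of all 12 was. The 2 of 12 thus do not stand out among lower genes. The summed mean FPKM of all 12 went from 6817 to 3646. HSPA5, which encodes BiP, had the fifth highest untreated mean of all 2885 listed genes and fell from 2379 to 1230 FPKM, with a log2 fold change of -1.04 (interval -1.13 to -0.96). HSP90B1, which encodes GRP94, went from 1243 to 561 FPKM (log2 -1.24, interval -1.33 to -1.15). Its interval does not overlap that of HSPA5. Calreticulin and calnexin hold newly made glycoproteins until they fold. CALR, for the soluble lectin, fell from 1111 to 729 FPKM (log2 -0.70, interval -0.80 to -0.59). CANX, for its membrane-bound relative, went from 690 to 390 FPKM (log2 -0.91, interval -0.999 to -0.82). The intervals of these 2 lectins also do not overlap.

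The disulfide isomerases form and rearrange disulfide bonds in the ER lumen. PDIA4 had the largest fall of all members, from 480 to 213 FPKM (log2 -1.27, interval -1.37 to -1.17, q-value 1.49e-134). PDIA6 went from 302 to 170 FPKM (log2 -0.92) and PDIA3, the partner of calnexin and calreticulin, from 276 to 154 FPKM (log2 -0.93). PDIA3 has a processed pseudogene, PDIA3P1, that is near-identical over the coding sequence, so reads could have been divided between them.

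BiP depends on J-domain cofactors that bring it clients and start ATP hydrolysis. DNAJB9, which also holds the sensor IRE1 inactive together with BiP, fell from 98.3 to 49.7 FPKM (log2 -1.07, interval -1.20 to -0.95). DNAJC10, a J protein that is itself a disulfide reductase, fell from 15.0 to 7.69 FPKM (log2 -1.06, interval -1.17 to -0.95). DNAJB11 and DNAJC3, luminal cofactors in folding, were lower by smaller amounts, DNAJB11 from 128 to 84.0 FPKM (log2 -0.69, interval -0.81 to -0.58) and DNAJC3 from 34.4 to 21.5 FPKM (log2 -0.77, interval -0.89 to -0.65). The intervals of DNAJB9 and DNAJC10 do not overlap those of DNAJB11 and DNAJC3. HSPA13, an HSP70-family ATPase of the ER, went from 59.8 to 36.2 FPKM (log2 -0.82, interval -0.94 to -0.69).

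Of the J proteins anchored in the ER membrane, apart from SEC63 of the translocon, 4 were listed. All 4 were lower, mostly at low levels, as were 52.4% of all listed genes. DNAJC1 fell from 36.2 to 27.0 FPKM (log2 -0.52), DNAJC16 from 5.02 to 2.89 FPKM (log2 -0.90) and DNAJC18 from 4.13 to 2.78 FPKM (log2 -0.67). DNAJB14, whose J domain faces the cytosol, has a log2 fold change of -0.81 (interval -1.01 to -0.61), but its FPKM means were 8.66 and 7.62, a log2 ratio of -0.18. The measures share their sign and differ greatly in size, and why they differ was not tested.

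Proteins of ER-associated degradation gave 4 lower genes of 4 listed, where 52.4% of all listed genes were lower. The EDEM proteins trim mannose from misfolded glycoproteins, which marks them for removal, and they did not move equally. EDEM1 fell from 54.8 to 25.5 FPKM (log2 -1.19, interval -1.29 to -1.09). EDEM2 went from 32.1 to 23.7 FPKM (log2 -0.53, interval -0.69 to -0.37) and EDEM3 from 10.7 to 7.78 FPKM (log2 -0.55, interval -0.70 to -0.40). The EDEM1 interval lies wholly below those of EDEM2 and EDEM3. DERL3, a derlin of the channel that returns proteins to the cytosol, went from 3.09 to 1.46 FPKM, with a wide interval of -1.36 to -0.37.

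The translocon and signal peptidase group had 8 listed genes, all lower, where 52.4% of all listed genes were lower. Their median log2 fold change was -0.68, and none was 2-fold lower. SEC61A1, the pore subunit of the channel, fell from 284 to 177 FPKM (log2 -0.78, interval -0.87 to -0.69). SEC61G, its small gamma subunit, went from 1203 to 823 FPKM (log2 -0.59, interval -0.71 to -0.46). SEC61G thus stood above SEC61A1 in FPKM, a scale per transcript length, in both groups. SEC63, a membrane J protein that couples BiP to the channel, fell from 56.8 to 36.6 FPKM (log2 -0.77), and its partner SEC62 from 18.6 to 13.7 FPKM (log2 -0.52). The SSR genes encode the translocon-associated protein complex, which helps some signal sequences to open the channel. SSR1 fell from 53.2 to 33.0 FPKM (log2 -0.78, interval -0.88 to -0.68), SSR2 from 526 to 376 FPKM (log2 -0.57) and SSR3 from 93.3 to 68.0 FPKM (log2 -0.55, interval -0.65 to -0.45). SEC11C, a catalytic subunit of the signal peptidase, went from 73.5 to 41.8 FPKM (log2 -0.89, interval -1.09 to -0.69).

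Vesicle coats had 4 listed genes, again all lower, as were 52.4% of all listed genes. SEC24D, a COPII subunit that selects cargo, fell from 87.3 to 51.0 FPKM (log2 -0.88, interval -0.98 to -0.77). SEC31A, of the outer COPII cage, went from 118 to 86.4 FPKM (log2 -0.51, interval -0.61 to -0.41). Its paralog SEC31B, at a much lower level, went from 1.32 to 0.82 FPKM (log2 -0.77, interval -1.25 to -0.29). The SEC24D and SEC31A intervals do not overlap. The 1 listed COPI subunit, COPG1, fell from 141 to 98.7 FPKM (log2 -0.60, interval -0.71 to -0.50).

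Cargo and retrieval receptors cycle between ER and Golgi, and 7 were listed, all of them lower, as were 52.4% of all listed genes. TMED proteins are p24 receptors that help load vesicles. TMED10 fell from 138 to 71.6 FPKM (log2 -1.04, interval -1.13 to -0.94), whereas TMED2, with which it forms complexes, went from 202 to 149 FPKM (log2 -0.52, interval -0.62 to -0.43). These intervals do not overlap. TMED5 and TMED7 each had a log2 fold change of -0.68, TMED5 from 26.4 to 17.5 FPKM and TMED7 from 52.4 to 34.8 FPKM. TMED7 shares sequence with the readthrough gene TMED7-TICAM2, so its value is uncertain. The KDEL receptors return luminal chaperones that carry a retrieval signal. KDELR1 went from 221 to 165 FPKM (log2 -0.51, interval -0.63 to -0.39), KDELR2 from 125 to 84.4 FPKM (log2 -0.66, interval -0.76 to -0.56) and KDELR3 from 31.2 to 21.3 FPKM (log2 -0.71, interval -0.89 to -0.54). The receptor levels followed the order KDELR1, KDELR2, KDELR3 in both groups, and the intervals of their falls overlap.

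**Figure D5:**
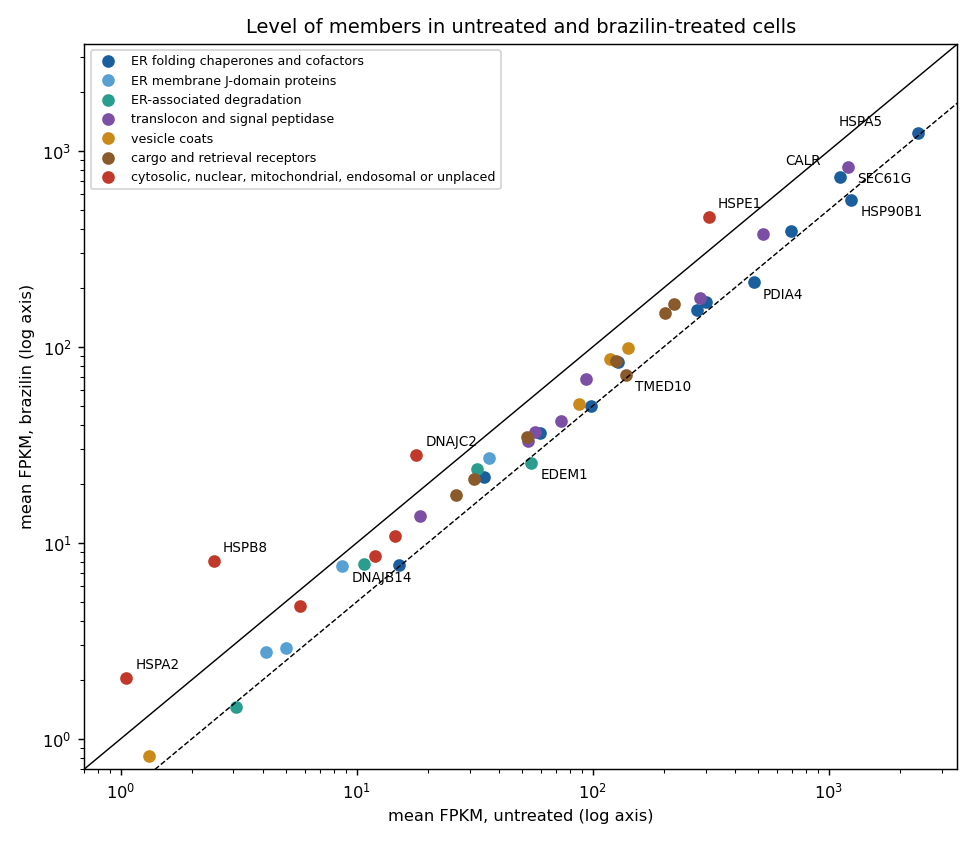
Mean FPKM of each listed gene with brazilin against untreated cells, on log axes, by role. The solid line marks equal levels and the dashed line a 2-fold lower level. HSPA5, HSP90B1, PDIA4, EDEM1 and TMED10 lie near or under the dashed line, and HSPB8, HSPA2, DNAJC2 and HSPE1 above the solid line.

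Outside the secretory pathway 3 of the 7 listed genes were lower (42.9%) and 4 higher, a split near the 52.4% lower and 47.6% higher of all listed genes. HSPB8, a small heat shock protein that works with the cochaperone BAG3 in selective autophagy, rose 3.06-fold, from 2.47 to 8.03 FPKM (log2 1.61, interval 1.27 to 1.96). HSPA2, a cytosolic HSP70 best known from the testis, was low in both groups, at 1.06 and 2.05 FPKM (log2 0.87, interval 0.34 to 1.39). DNAJC2, a ribosome-bound and nuclear J protein, rose from 17.9 to 28.0 FPKM (log2 0.57, interval 0.41 to 0.73). HSPE1, the mitochondrial cochaperonin, rose from 310 to 460 FPKM (log2 0.51, interval 0.39 to 0.64). The falls in this group were small. DNAJC13, an endosomal J protein, went from 14.5 to 10.8 FPKM (log2 -0.51), and DNAJC4 and DNAJC22, whose place is less certain, from 11.9 to 8.57 FPKM (log2 -0.53) and from 5.72 to 4.74 FPKM (log2 -0.53). By the ratio of FPKM means all 3 falls were smaller than 0.5 on the log2 scale. HSP90AA1, HSP90AB1, HSPA8, HSPD1 and HSPH1, the abundant cytosolic and mitochondrial chaperones, were not in any of the tables and have no values here.

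The derivatives, at the same dose and time, had far shorter tables than brazilin, with 11 genes for methylated and 193 for acetylated brazilin. Tables this short would hold few or no genes of any set the size of this one. With methylated brazilin 1 of 11 listed genes was a member, and 72.7% of the 11 were lower. HSPA1A, a stress-inducible cytosolic HSP70, fell from 28.2 to 18.8 FPKM (log2 -0.59, interval -1.07 to -0.11, q-value 0.0155). Its copy HSPA1B is 99.8% identical over the coding sequence, so reads of the pair cannot be separated with certainty. With acetylated brazilin 0 of 193 listed genes were members, and 187 of the 20056 protein-coding genes, or 0.932%, were in that table. No member was in more than 1 table, so no difference between compounds could be tested for any of them. The lists of 2885, 193 and 11 genes hold 2998 different genes, so some other genes were in more than 1 table. Only 1 member was in a derivative's table, so the lack of overlap says little about the members. Whether members overlap less than other listed genes was not tested. The absence of a gene from a derivative's table does not show that its level was unchanged. The tables also share their untreated samples.

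Other genes of the same pathways, taken from lists that the symbol pattern does not cover, moved in the same direction with brazilin. Of 137 genes in 5 lists of ER and secretory genes, 49 were in the brazilin table and all 49 were lower, with a median log2 fold change of -0.69, while 52.4% of the whole table was lower. These lists were drawn up with earlier results of these data known, so they are not independent evidence of the direction. For scale, 14.3% of all protein-coding genes were in the brazilin table, a share that counts genes these cells do not express. Other ER folding enzymes gave 20 listed of 37 (54.1%), all lower. HYOU1, an HSP70-family chaperone and exchange factor for BiP, fell from 422 to 188 FPKM (log2 -1.26, interval -1.38 to -1.15), CLGN, a relative of calnexin, from 40.1 to 17.3 FPKM (log2 -1.31) and ERO1B, an oxidase that recharges disulfide isomerases, from 14.7 to 7.28 FPKM (log2 -1.16). AGR2, a disulfide isomerase family member, had the largest fall in the list (log2 -2.53), and FKBP7, a prolyl isomerase of the ER, was low at 2.86 and 1.31 FPKM.

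In ER-associated degradation 7 of 21 were listed (33.3%, against 14.3% of all protein-coding genes), all lower. SEL1L, the scaffold of the HRD1 ubiquitin ligase, fell from 93.4 to 39.3 FPKM (log2 -1.37, interval -1.47 to -1.27), more than SYVN1, the ligase itself (65.3 to 43.2 FPKM, log2 -0.69, interval -0.80 to -0.57). UBE2J1, an ER-bound ubiquitin-conjugating enzyme, had a log2 fold change of -0.93, and the lectins ERLEC1 and OS9 had -0.65 and -0.59. Oligosaccharyltransferase and signal peptidase genes gave 8 listed of 16 (50%), all lower. STT3A and STT3B, the catalytic subunits that transfer glycans, were both at a log2 fold change of -0.78. The subunits MAGT1 and OSTC were at -1.07 and -0.81, and the signal peptidase subunit SPCS2 at -0.72. Among other coat and cargo genes 9 of 45 were listed (20%, not far from the 14.3% of all protein-coding genes), all lower. GOLGB1, the Golgi tether giantin, fell from 20.2 to 9.95 FPKM (log2 -1.11), MIA3, which loads collagen into COPII carriers, from 38.8 to 21.9 FPKM (log2 -1.03), and the cargo lectin LMAN1 from 43.0 to 24.1 FPKM (log2 -0.93), with log2 fold changes of -0.77 for ARFGAP3 and -0.69 for MIA2.

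Of 18 regulators of the unfolded protein and integrated stress responses 5 were listed (27.8%, against 14.3% of all protein-coding genes), and all 5 were lower, as were 52.4% of all listed genes. They were the sensors ERN1, which encodes IRE1 (13.2 to 9.08 FPKM, log2 -0.58, interval -0.70 to -0.45), and EIF2AK3, which encodes PERK (13.6 to 9.69 FPKM, log2 -0.58, interval -0.74 to -0.41), the transcription factor gene CREB3L2 (log2 -0.60) and the stress-induced genes TRIB3 (115 to 70.2 FPKM, log2 -0.79) and DDIT4 (249 to 165 FPKM, log2 -0.68). XBP1, ATF6, ATF4 and DDIT3 were not in the table. The list of heat shock factors and other cytosolic chaperones had 3 of 37 genes listed (8.11%), a share below the 14.3% of all protein-coding genes. All 3 were higher, as were 47.6% of all listed genes, and no difference between the lists was tested. These were CCT7, a subunit of the cytosolic chaperonin (193 to 311 FPKM, log2 0.60, interval 0.50 to 0.70), FKBP5, a cochaperone of steroid receptors (9.08 to 14.7 FPKM, log2 0.60), and SGTA, which handles tail-anchored membrane proteins in the cytosol (55.5 to 83.6 FPKM, log2 0.50). With acetylated brazilin 2 of the genes in these lists were listed, CREBRF lower (log2 -0.58) and TMEM258, a small oligosaccharyltransferase subunit, higher from 171 to 243 FPKM (log2 0.55), and with methylated brazilin none.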

How the data were processed

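RNA of MDA-MB-231 cells was measured in 8 samples, 2 per group. Libraries and downstream analysis were done by BGI Americas, per the labels. The tools in the submitters' processing notes are DESeq2, RSEM, Bowtie, StringTie and HISAT. The notes name the builds mm10, GRCh38 and hg38, and state neither versions nor the step each served. Per the file headers, the authors deposited group means in FPKM, log2 fold changes and q-values, for called genes only. Without values per sample no model was fitted, and the precision set by depth is unknown.

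The standard error was the absolute log2 fold change over the normal quantile of the q-value taken as a two-sided p-value, an approach tested on simulated data. Classes by compartment were written by hand. Members and lists were chosen with earlier results of these data known. All members may be named, and of each other list the 5 largest changes among genes that reach 1 FPKM in either group, plus every listed regulator of the unfolded protein response; list genes outside that rule are counted only. FN1, CAV1, CD44, SNAI2, CD68, PECAM1 and genes named as absent were named after the tables were seen.

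Transcript lengths came from GENCODE release 29, matched for 2866 of 2885 brazilin genes (the transcript with the longest coding sequence). Copies were searched with BLAST+ 2.17.0 at 98% identity over 80% of the coding sequence against all GENCODE transcripts, and 3 of 47 members had one. Gene symbols were counted in the RefSeq table of GRCh38.p14. A planned count of ER retrieval signals in protein sequences was not run, because no protein sequences were used here. Python 3.11.15, pandas 2.3.3 and scipy 1.17.1 were used.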

Additional observations from a re-analysis of the deposited data

How the results depend on the processing

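No count model could be fitted, and leaving out a replicate was not possible because the tables hold group means. No paired analysis was possible because the columns carry no replicate numbers. The test between compounds and its correlation of 0.5 were not run, since no member is in 2 tables. With brazilin the 42 lower and 4 higher members became 40 and 3 at q-values under 0.001, and 42 and 4 at q-values under 0.01, with at least 1 FPKM, and without symbols that encode other proteins, of which none was listed. Without genes that have near-identical copies they were 40 and 4. At an absolute log2 fold change of at least 1, which leaves fewer genes by construction, 7 were lower and 1 higher. The 7 were all of the ER and secretory pathway, namely 5 folding chaperones, 1 gene of ER-associated degradation and 1 cargo receptor, with 0 ER membrane J proteins, 0 translocon genes, 0 coat genes and 0 other members. The 5 folding chaperones at least 2-fold lower became 2 by the ratio of FPKM means and 2 after centring on the median offset. By the log2 ratio of FPKM means of at least 0.5, 29 were lower and 4 higher. The classes then held 12 folding chaperones, 5 translocon genes, 5 cargo receptors, 3 coat genes, 2 ER membrane J proteins, 2 genes of ER-associated degradation and 0 other lower members. HSPA1A with methylated brazilin (1 lower) was lost at q-values under 0.01 or 0.001, at a log2 fold change of 1 and without copies, leaving 0 in each case, and stayed under the other settings. Over the 47 members, 34 stayed past 0.5 and 13 did not under the ratio of FPKM means, and the same numbers held after centring on the median offset of each table; the sign was kept in each.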

Other observations

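The elements in the promoters of the members also occur in other listed genes. With brazilin 13 listed genes held an ERSE, the 5 members, 4 other lower genes and 4 higher genes. The lower ones outside the members were ERO1B (log2 -1.16), FICD, an ER enzyme that adds AMP to BiP (21.3 to 11.6 FPKM, log2 -0.98), SERP1, a translocon-associated protein (92.2 to 59.4 FPKM, log2 -0.73), and TRIM5 (13.2 to 9.63 FPKM, log2 -0.64). The higher ones were SYNPO (4.56 to 8.59 FPKM) and FRG2, FRG2B and FRG2C, a family of similar genes at 0.5 FPKM or less in both groups.

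ERSE-II was held by 4 lower genes, HYOU1, NAV2, NUCB1 and SDF2L1, and by 1 higher gene, RUVBL2. The UPRE was held by the 4 members named in the results, by 23 other lower genes and by 4 higher genes. The largest fall among the 23 was that of SMIM14 (13.1 to 3.62 FPKM, log2 -1.95). These genes were named after their values were seen, the counts describe this table, and no test was made.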
